A study of Drosophila melanogaster with 7 samples.

Results

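The ring gland is a small endocrine organ attached to the brain of the fly larva. Its prothoracic gland turns dietary sterol into ecdysone, the steroid that times the molts, through a chain of enzymes known as the Halloween genes. Its corpora allata make juvenile hormone from acetyl-CoA through the mevalonate and farnesyl pathway, and the methyltransferase Jhamt acts at the end of that chain. The brains of first instar larvae were dissociated for droplet single cell RNA-seq, and cells of the gland that came along with the brain lobes could be looked for among them.

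The larvae were wild type CS animals, a laboratory strain without a transgene, reared at 25 °C. A total of 4 libraries came from normally fed larvae (Normal 1 to 4). Another 3 came from larvae that were collected at 11 hours after hatching, according to the labels, and kept without food on 2% agar for 4 hours (Starvation 1 to 3). Each library pooled many dissected brains, so its cells are not replicates of a condition. The 4 and 3 libraries stand for 3 and 2 biological replicates, so some libraries share an experiment, and p-values over libraries measure in part the spread between libraries of 1 experiment.

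Cells with 201 to 4499 genes and under 20% of mitochondrial UMIs were kept, which left 8696 of 9353. A UMI is a molecular tag that counts each captured transcript once. A kept cell counted as prothoracic gland when at least 2 of the genes phm, dib, sad, nvd and spok had a UMI. It counted as corpora allata when Jhamt had 2 or more UMIs and at most 1 of those 5 genes was found. The rule took 789 cells, 458 as prothoracic gland and 331 as corpora allata. The cells were thus chosen by the UMIs of these 6 genes, whose levels below describe the selection and were not tested. Of the cells with 1 of the 5 genes, just outside the rule, there were 1496.

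The rule genes encode steps of the ecdysone chain. Neverland (nvd, FBgn0259697) opens it by dehydrogenating cholesterol, and spok (FBgn0086917, chr3R:3322810-3354486 on the plus strand) acts in the poorly resolved step known as the black box. The cytochromes P450 phm (FBgn0004959, chrX:18685766-18688433, plus strand), dib (FBgn0000449, chr3L:4062292-4064551, plus strand) and sad (FBgn0003312, chr3R:11877235-11879754, plus strand) hydroxylate the steroid in turn. Jhamt (FBgn0028841) lies on chr2L:16365903-16367039, plus strand. Positions are those of the Ensembl annotation of BDGP6, and gene IDs are those of the count tables.

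The libraries held 805 to 1755 kept cells, with a median of 2370 UMIs per kept cell in Normal 1 and 12296 in Normal 4. Normal 2 and Normal 3 shared 597 cell barcodes with each other and 218 to 262 with each of Starvation 1 and Starvation 2. The other pairs that held Normal 1, Normal 4 or Starvation 3 shared 0 to 5, and Starvation 1 and 2 shared 170. Of the kept cells, 1094 (12.6%) shared their barcode with a record of another library that held more than 3 times their UMIs. These cells are called marked below. The marked cells made up 32.6% of the kept cells of Normal 2 and 38.9% of those of Normal 3, but 0% to 8.09% elsewhere.

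Most cells taken by the rule did not look like gland cells. Of the 458 prothoracic gland members, 340 held exactly 2 of the 5 genes, and in 239 of these each gene was present as a single UMI. Of the 331 corpora allata members, 232 held 2 Jhamt UMIs and 62 held 3. A minority stood far above the rest. Among kept cells with at least 3 of the 5 ecdysone genes, no cell lay between 0.0719% and 0.199% of its UMIs for their sum. Among cells with 2 or more Jhamt UMIs, none lay between 0.198% and 0.754% for Jhamt. A cell with at least 3 of the 5 genes and at least 0.1% of its UMIs from them is therefore called ecdysone gene-rich, and one with at least 0.5% of its UMIs from Jhamt is called Jhamt-rich. These limits were set after the values had been seen. They took 47 and 24 kept cells, with a median of 1.51% ecdysone gene UMIs and of 1.65% Jhamt UMIs. No cell met both. Of the 24 Jhamt-rich cells, 3 had been taken as prothoracic gland because 2 or more ecdysone genes were found in them.

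**Figure D1:**
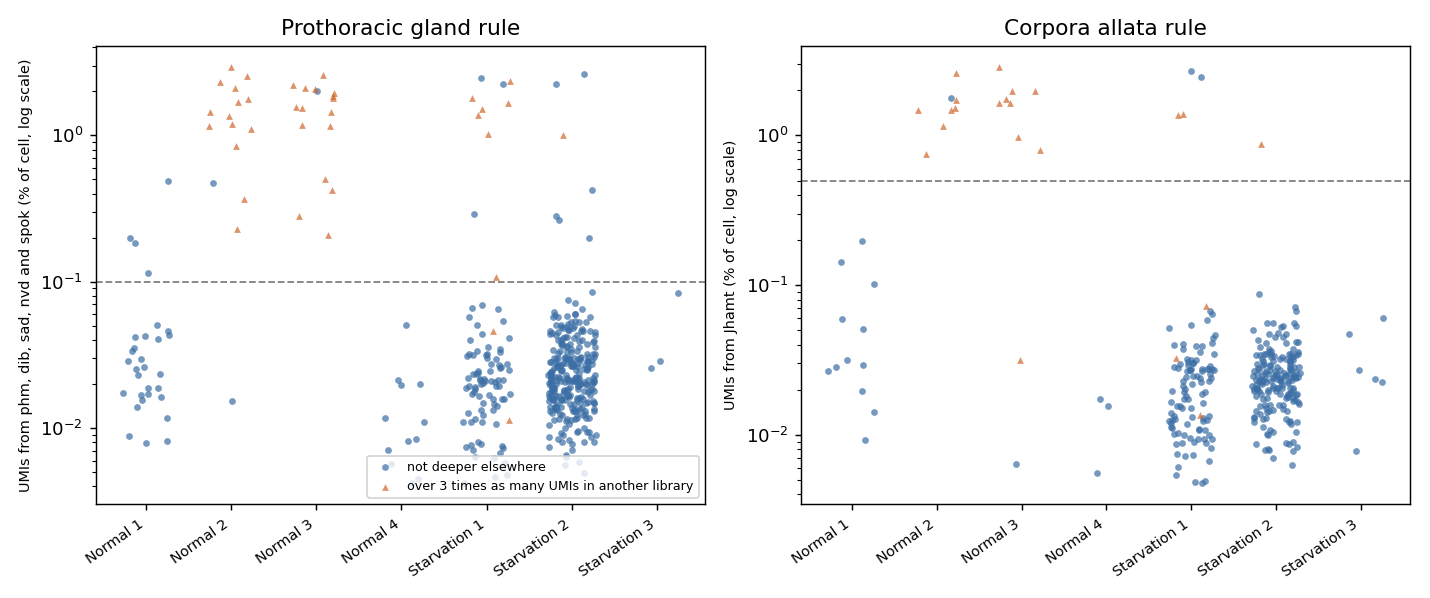
Share of a cell's UMIs from phm, dib, sad, nvd and spok in the 458 prothoracic gland members (left) and from Jhamt in the 331 corpora allata members (right), by library, on log axes. Each point is a cell, triangles are marked cells, and dashed lines are the limits of 0.1% and 0.5%. The few points above the left line that are not among the 47 rich cells held only 2 of the 5 genes. Most members lie far below the lines, and most points above them in Normal 2 and Normal 3 are triangles.

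The remaining 408 prothoracic gland members carried the 5 genes as a trace, with a median of 0.0212% of their UMIs. The markers of neurons were present in nearly all of them. At least 3 of elav, nSyb, Syt1, brp and nrv3 were found in 92.2% of these cells (376 of 408), against 76.3% of the 7907 cells outside both rules. They were also deeper, with a median of 11181 UMIs against 5489. The 310 trace corpora allata members gave 87.7% (272 of 310) at a median of 9863 UMIs. This measure does not tell a neuron from a deep gland cell, since all of the 13, 5 and 8 deep gland cells described below also held at least 3. At least 3 of 5 glia markers were found in 71.3% of the 408 cells, against 32.8% outside both rules. Summed neuron markers came to 3834 CPM (UMIs per 1000000 UMIs of those cells) in the 408 cells and 4501 CPM in the 310. They came to 482 CPM in the 47 ecdysone gene-rich cells, against 5457 CPM outside both rules. For the trace cells the label of ring gland cell thus went against their summed neuron markers.

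Other markers moved with the selection as well. The summed UMIs of the 458 prothoracic gland members were set against the cells outside both rules, where a log2 ratio over 1 (5 CPM added) was met by 1.57% of 13728 genes. All 5 muscle markers were past it, with Mlc1 at 155 against 50.3 CPM and Mlc2 at 328 against 114 CPM. Past -1 were 69 of the 13728 genes and 7 of the 10 heat shock genes, with Hsp26 at 80.4 against 358 CPM. For the 331 corpora allata members 1.05% of 13696 genes were past 1, among them 3 of 5 muscle markers. So were 8 of the 12 genes of juvenile hormone synthesis other than Jhamt. Summed with Jhamt, the genes of juvenile hormone synthesis stood at 43012 CPM in the 24 Jhamt-rich cells. They stood at 525 CPM in the 310 trace members and at 291 CPM outside both rules. Past -1 were 62 of the 13696 genes and 7 of 10 heat shock genes. In the rich cells no muscle marker was past 1 for ecdysone genes (4.85% of all genes over 1, 21.2% under -1), and 1 of 5 was for Jhamt (4.77% over, 20.2% under). All 5 neuron markers were past -1 in both. Most members came from Starvation 1 and 2, whose other cells also held less Hsp26 than the normal libraries. The part of library and cell type in these ratios was not tested.

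The same traces were present in neurons at large. Among neurons, taken as kept cells with at least 4 of the 5 neuron markers, 27.4% of 1285 in Starvation 2 held a spok UMI, 28.2% a phm UMI and 46.3% a Jhamt UMI, at a median of 7821 UMIs. In Starvation 1 the shares were 15.8%, 12.0% and 31.2% of 1251, at a median of 6842 UMIs. In Normal 1, the shallowest library, they were 12.8%, 7.41% and 15.8% of 634 neurons at 3996 UMIs. In Starvation 3 they were 3.85%, 2.27% and 9.09% of 572 at 6367 UMIs, and in Normal 3 they were 0.5%, 0.667% and 1.83% of 600 at 6421 UMIs. The rule itself took 335 of 5576 such neurons as prothoracic gland and 244 as corpora allata.

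In 3 libraries the trace of the 5 genes could be set beside a rich cell of the same library with over 20000 UMIs. The make-up of the trace was near that of the rich cells in Normal 4 and Starvation 2, and less so in Starvation 1. In Normal 4 the only ecdysone gene-rich cell gave 27.0% of its 1671 ecdysone gene UMIs to sad and 15.3% to phm, and the 177 such UMIs of all other kept cells gave 32.2% and 11.3%. In Starvation 2 the order was the opposite. Its rich cells gave 11.5% to sad and 34.1% to phm, and the 1473 UMIs of its other cells gave 13.4% and 39.0%. Starvation 1 gave 11.2% and 23.1% in rich cells against 11.3% and 30.7% in the others. Its spok part was 52.9% against 43.3%, with 42.6% against 37.3% in Starvation 2 and 44.8% against 40.1% in Normal 4. In Normal 2 and Normal 3, without such a deep rich cell, the other cells held only 41 and 23 of these UMIs. There dib took 2.75% and 2.56% in rich cells against 14.6% and 26.1% in the others. The summed level of the 5 genes in cells that were not gland-rich was 96.3 CPM in Starvation 2, 57.7 CPM in Normal 1 and 47.0 CPM in Starvation 1. It was 13.7 CPM in Normal 4, 13.1 CPM in Starvation 3, 6.57 CPM in Normal 2 and 3.71 CPM in Normal 3. Whether these transcripts came from RNA free in the suspension was not tested.

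**Figure D2:**
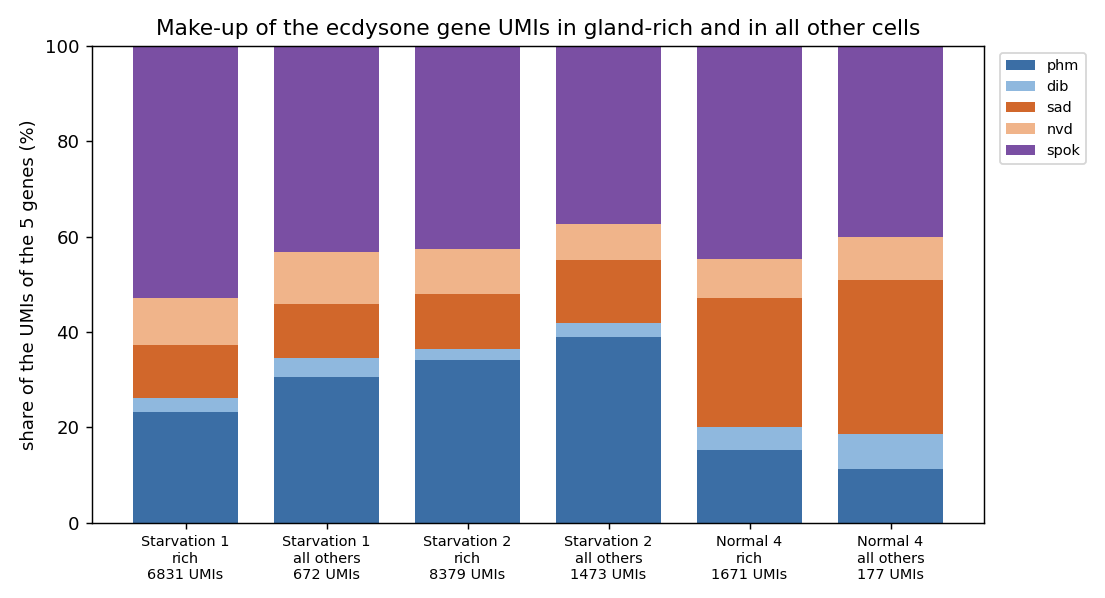
Make-up of the UMIs of the 5 ecdysone genes (stacked bars, % of their sum, starting at 0) in the ecdysone gene-rich cells of 3 libraries, without an upper limit of genes, and in all other kept cells of the same library. The UMIs behind each bar are under it. Both Normal 4 bars have a larger sad and a smaller phm part than the 4 bars of Starvation 1 and 2.

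The rich cells were spread over few libraries. Of the 47 ecdysone gene-rich cells, 15 were in Normal 2, 16 in Normal 3, 9 in Starvation 1 and 7 in Starvation 2. Of the 24 Jhamt-rich cells, 8 were in Normal 2, 8 in Normal 3, 6 in Starvation 1 and 2 in Starvation 2. Normal 1, Normal 4 and Starvation 3 held none. The marked share was far above the 12.6% of all kept cells, at 76.6% (36 of 47) and 75% (18 of 24). In the normal libraries 29 of 31 ecdysone gene-rich cells and 15 of 16 Jhamt-rich cells were marked. For all 29 of the former and for 14 of the latter the deepest record with that barcode lay in a starvation library.

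Many rich records shared a barcode. A total of 58 records were ecdysone gene-rich when the upper limit of genes was lifted, and they held 22 different barcodes, of which 17 were present in more than 1 library. The 29 Jhamt-rich records held 11 barcodes, 8 of them in more than 1 library. The 11 and 5 records that lay above 4499 genes had been removed by the limit. Shallow records with the same barcodes had been kept for all of them but the Normal 4 strong cell and the Starvation 3 Jhamt-rich cell, whose barcodes were present in 1 library each. Each of the 36 shallow ecdysone gene-rich records had 17.1 to 24.6 times fewer UMIs than the deepest record of its barcode (median 21.1). The 18 shallow Jhamt-rich records had 7.38 to 22.8 times fewer. A median of 97.4% and 98.5% of the genes in a shallow record were also found in its deepest record. All 36 and all 18 shallow records correlated best with the record of their own barcode among all deepest records of rich cells. These correlations were taken across genes, as a description, and had medians of 0.781 and 0.776, against 0.748 and 0.747 for the best other cell of the same kind. The shallow records were thus not counted as cells of their own in what follows.

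**Figure D3:**
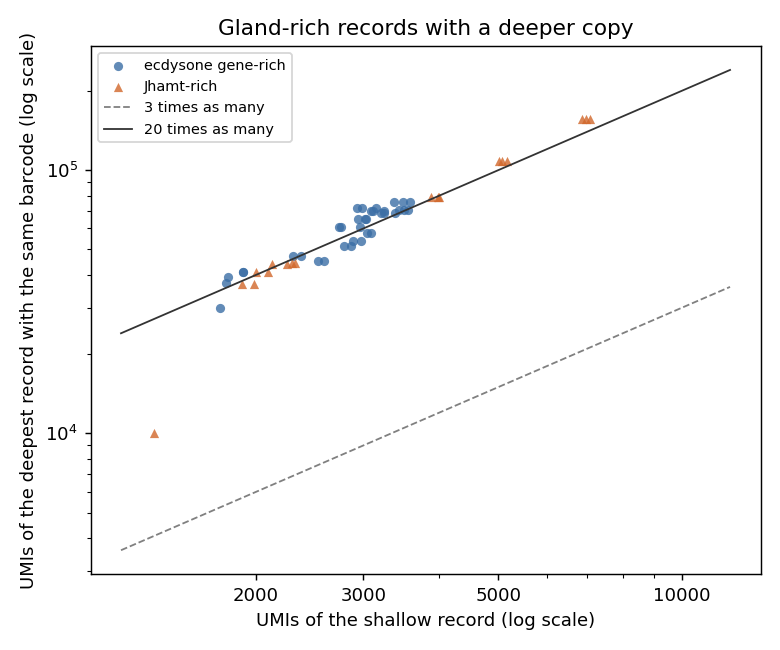
UMIs of each shallow gland-rich record (x, log scale) against the UMIs of the deepest record with the same barcode (y, log scale), for 36 ecdysone gene-rich and 18 Jhamt-rich records. Most points lie near the solid line of 20 times as many UMIs, well above the dashed line of 3 times as many.

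The deepest record of each barcode, without the upper limit of genes, was used to describe the gland cells. Of the 22 ecdysone gene-rich barcodes, 18 had over 20000 UMIs. They fell into 13 strong cells, in which the 5 genes took 1.20% to 2.77% of the UMIs, and 5 weak cells, in which they took 0.199% to 0.425%. The strong cells held 45282 to 83481 UMIs and 4270 to 5631 genes, against a median of 5889 UMIs over all kept cells, and 11 of them were above the gene limit. Among them 6 were in Starvation 1, 6 in Starvation 2 and 1 in Normal 4. The other 4 barcodes had 1683 to 8777 UMIs, 2 of them in normal libraries. The 8 deep Jhamt-rich cells held 36985 to 156708 UMIs, all in starvation libraries, and 3 further ones held 10017 to 19364 UMIs. No doublet caller was run. Gene levels are CPM over the summed UMIs of a group, and ranges are over single cells.

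In the strong cells the ecdysone chain was present from sterol to steroid. Spok stood at 9133 CPM (5160 to 14904 over 13 cells), phm at 5123 CPM (1928 to 7582), sad at 2535 CPM (1056 to 5402), nvd at 1685 CPM (1039 to 2562) and dib at 569 CPM (110 to 986). Every strong cell held every one of these 5 genes, which also served to choose them. The level of dib ranged more widely than that of the others. In the 7907 cells outside both rules the 5 genes stood between 1.08 and 10.4 CPM.

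Other genes of the chain, which the rule did not use, were read by how many members stood more than 2-fold above or below the cells outside both rules (a log2 ratio past 1 or -1, with 5 CPM added). Over all 13641 genes with a UMI, 5.4% were past the upper limit in the strong cells and 16.3% past the lower one. There was 1 sum on each side, so no test was made. Shroud (sro, FBgn0262112), a dehydrogenase of the black box, was at 1739 CPM (703 to 2907) against 3.94 CPM outside both rules. Cyp18a1, which breaks ecdysteroids down, was found in only 6 of 13 strong cells, at 69.4 CPM overall and up to 365 CPM. No UMI was found in them for spo, the paralog of spok used in the embryo, or for shd, which turns ecdysone into its active form in other tissues. A count of 0 in the 820781 UMIs of these cells allows up to 3 counts (a one-sided limit at 95%).

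The supply of electrons and haem to P450 enzymes followed in part. Of 6 genes, 4 were past the upper limit. The reductase Cpr stood at 288 CPM against 23.2, the ferredoxin Fdx2 at 333 CPM against 32.0, and the haem synthesis genes Alas and Pbgs at 255 CPM against 32.1 and at 207 CPM against 9.72. Fdx1 at 24.4 CPM against 31.1 and dare, the ferredoxin reductase, at 25.6 CPM against 11.6 were not past it.

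Of 16 sterol uptake and transport genes only Start1 and Npc1a were past the upper limit, and 3 were past the lower one. Start1, a sterol carrier with a START domain, was at 2121 CPM (250 to 5498) against 16.0 CPM. Npc1a, which moves cholesterol out of the endosome, was at 1117 CPM with a narrow range of 741 to 1448 CPM, against 34.7 CPM. Its partner Npc2a stood at 62.1 CPM against 216 CPM, and the lipoprotein receptors LpR1 and mgl at 18.3 CPM against 90.4 and at 39.0 CPM against 112. For 5 of the 16 genes no UMI was found in the strong cells.

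Among 16 transcription factors tied to the prothoracic gland, 4 were past the upper limit and 8 past the lower one. Ouijaboard (ouib), a zinc finger protein that drives spok, was at 218 CPM (16.5 to 408) against 0.618 CPM. Vvl, a POU domain factor needed for Halloween gene expression, was at 1775 CPM against 351 CPM. EcR, the ecdysone receptor, stood at 161 CPM with a range of 22.1 to 538 CPM, and mld at 45.1 CPM. Known targets and relays of the hormone were low here, with Eip75B at 125 CPM against 863 CPM, br at 20.7 CPM against 239 CPM and Hr4 at 42.6 CPM against 109 CPM. For kni and Eip74EF no UMI was found.

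Of 15 receptor and relay genes, tor and Pvr were past the upper limit and 8 past the lower one. Torso (tor), the receptor of the brain neuropeptide PTTH, was at 180 CPM (23.96 to 431) against 0.424 CPM, and each of the 13 strong cells held it. Pvr, a receptor tyrosine kinase, was at 24.4 CPM against 8.75 CPM. The insulin receptor InR stood at 162 CPM against 375 CPM. Alk was at 24.4 CPM against 378 CPM, and the octopamine receptor Octbeta3R was at 4.87 CPM and found in 3 of 13 cells. For the release and uptake of ecdysone, the transporter Atet was at 227 CPM against 58.0 CPM and the ecdysone importer Oatp74D at 683.5 CPM (181 to 1833) against 44.3 CPM. The vesicle proteins Syt1 and nSyb, at 43.9 and 81.6 CPM, were past the lower limit and belong to the neuron markers as well.

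**Figure D4:**
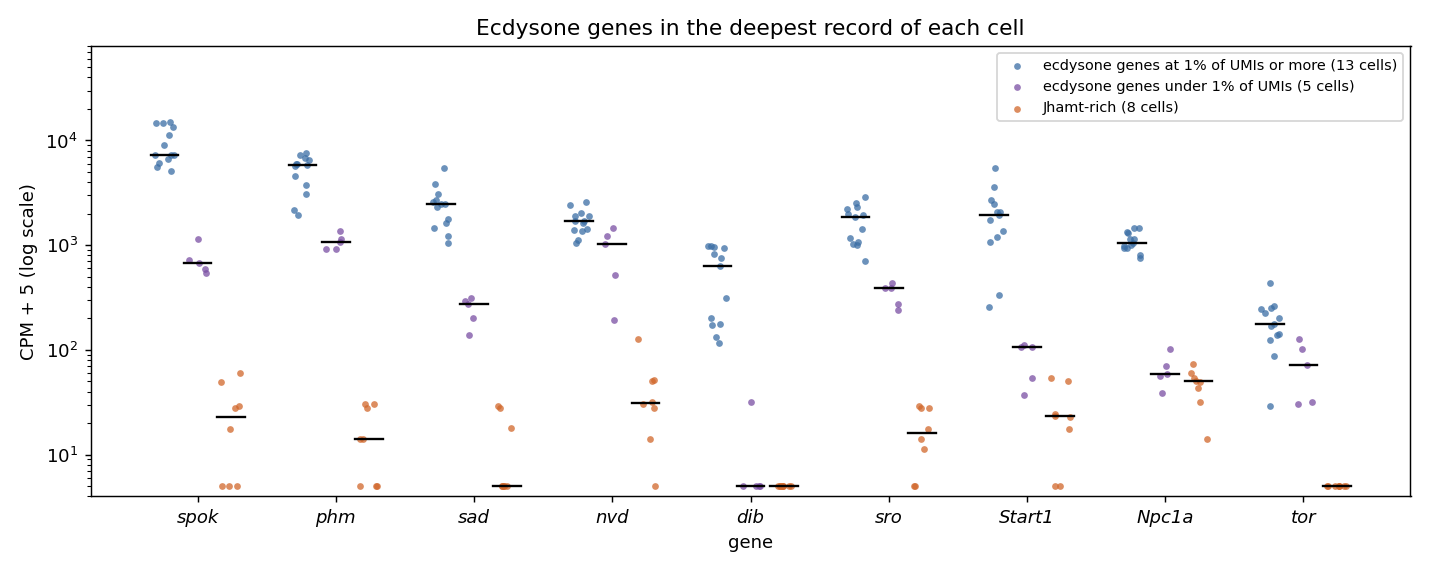
Levels of 9 ecdysone genes in single cells, as CPM with 5 added on a log axis, in 13 strong cells (blue), 5 weak cells (purple) and 8 deep Jhamt-rich cells (orange). Black lines are medians. Weak cells lie below all strong cells for spok, phm, sad, dib, sro, Start1 and Npc1a but overlap them for nvd and tor.

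The genes outside the lists that led the ecdysone gene-rich cells were named by the rule given with the methods, applied to these cells after their values had been seen. They were led by GstE14, a glutathione S-transferase that the gland needs for sterol use, at 680 CPM (200 to 1358) in the strong cells against 2.21 CPM. CG4408 followed at 1480.3 CPM (313 to 2743) against 3.69 CPM, lncRNA:CR43432 at 1786 CPM (383 to 4904) against 7.42 CPM and CG17549 at 1354 CPM (192 to 2625) against 8.64 CPM. Faa, the last enzyme of tyrosine breakdown, was at 512 CPM (167 to 973) against 2.28 CPM. Other leaders varied strongly between cells. CG15201 ranged from 0 to 5652 CPM and CG5791 from 0 to 12429 CPM. Applied to all 458 members, the same rule named cu, CG17549, MtnA and Sirup at the top. MtnA, a metallothionein, stood at 9117 CPM (2837 to 18640) in the strong cells against 349 CPM.

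The 5 weak cells, 1 in Starvation 1 and 4 in Starvation 2, differed from the strong ones in more than the genes that set them apart. They held 29848 to 41123 UMIs and all passed the gene limit. Beside the rule genes, sro stood at 347 CPM (235 to 432) and Npc1a at 61.6 CPM (33.5 to 97.3). Start1 was at 78.4 CPM (32.3 to 108) and vvl at 84.1 CPM (67.0 to 108). For none of these 4 genes did a weak cell overlap the 13 strong cells. The share of all genes without overlap is not given here, so this is not read as particular to these genes. No ouib UMI was found in the weak cells, and dib, at 1 UMI in all, was all but missing. In contrast, nvd was at 885 CPM (188 to 1450.1), GstE14 at 1160 CPM (924 to 1478), Faa at 594 CPM (323 to 924) and MtnA at 8405 CPM (2580 to 18554), all overlapping the strong cells.

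Some genes outside the lists were high in the weak cells, and they were named by their ratio after the values had been seen. Among genes in at least 80% of these cells and outside the lists, those with the highest ratio to the strong cells were CG33468, Prx2540-2, CG12868 and Arc1. Arc1, which encodes a capsid-forming protein, was at 3424 CPM (1039 to 5107) against 146 CPM (42.4 to 375) in the strong cells. The peroxiredoxin Prx2540-2 was at 471 CPM (161 to 1337) against 4.87 CPM (0 to 16.5). Xrp1, a bZIP transcription factor, was at 1104 CPM (972 to 1388) against 130 CPM (34.8 to 272), and puc, the phosphatase that the JNK pathway induces, at 247 CPM (170 to 376) against 26.8 CPM (0 to 100). For these 4 genes no weak cell overlapped a strong one, and the share of all genes without overlap is not given here. The cells outside both rules held 256 CPM of Xrp1 and 122 CPM of puc, between the 2 groups, and Arc1 at 51.6 CPM. Mitochondrial UMIs took 4.08% to 6.51% in the weak and 3.92% to 6.48% in the strong cells. The 10 heat shock genes summed to 185 CPM in the weak cells (96.8 to 413), where the median strong cell held 278 CPM and the cells outside both rules held 2371 CPM in sum. The strong cells ranged from 102 to 10805 CPM. Within Starvation 2 alone, 4 weak cells could be set against 6 strong ones. Arc1 was at 2388 to 5107 CPM in these weak cells against 55.5 to 200 CPM, and Xrp1 at 1018 to 1388 CPM against 46.2 to 272 CPM. The phosphatase gene puc was at 170 to 376 CPM against 13.3 to 100 CPM, and Npc1a at 50.9 to 97.3 CPM against 808 to 1448 CPM. None of these ranges overlapped within that library, which already followed from the ranges over all weak and strong cells. All weak cells came from starved libraries.

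In the 8 deep Jhamt-rich cells most genes of the chain from acetyl-CoA to juvenile hormone stood high. Jhamt, the rule gene, was at 13789 CPM (7602 to 26768) against 19.0 CPM outside both rules. Over 13645 genes with a UMI, 4.23% were more than 2-fold above those cells and 13.1% more than 2-fold below. Of the 12 other genes of juvenile hormone synthesis, 10 were above and none below, with a median log2 ratio of 4.55 against -0.07 over all genes. Hmgs, which makes HMG-CoA, was at 3109 CPM (953 to 6111) against 31.8 CPM. Fpps, the farnesyl diphosphate synthase, was at 1678 CPM (528 to 3623) against 29.9 CPM, and CG5919, the isopentenyl isomerase, at 1284 CPM (537 to 2758) against 44.2 CPM. The aldehyde dehydrogenase Aldh-III was at 1186 CPM (340 to 2623) against 56.5 CPM. Cyp6g2, a P450 enzyme of the same cells, reached 6118 CPM (1547 to 13168) against 10.3 CPM. For CG33671 no UMI was found in any group of cells, and qm stood at 28.9 CPM against 20.4 CPM.

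The deep cells had been chosen by the genes of one chain or the other, so their separation by the 5 rule genes and by Jhamt is set by the choice. In the 8 Jhamt-rich cells no dib or tor UMI was found, which allows 3 counts in 622100 UMIs, and spok stood at 25.7 CPM, phm at 14.5 CPM, sro at 9.64 CPM and nvd at 30.5 CPM. In the 13 strong cells Jhamt stood at 59.7 CPM and Cyp6g2 at 17.1 CPM. The single-cell ranges did not overlap between the 2 kinds for the other ecdysone and transport genes sro, Start1, Npc1a, tor, Atet and Oatp74D, nor for the juvenile hormone genes Hmgs, Fpps, CG5919, Aldh-III and Cyp6g2. The share of all genes without overlap is not given here, so this is not read as particular to these pathways. The shallow Normal 2 barcode described below held both kinds of rule gene. A few members of the mevalonate part were also above 2-fold in the strong cells. Among these were Hmgs at 81.6 CPM, Mvd at 43.9 CPM and CG10932, an acetyl-CoA thiolase, at 93.8 CPM.

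**Figure D5:**
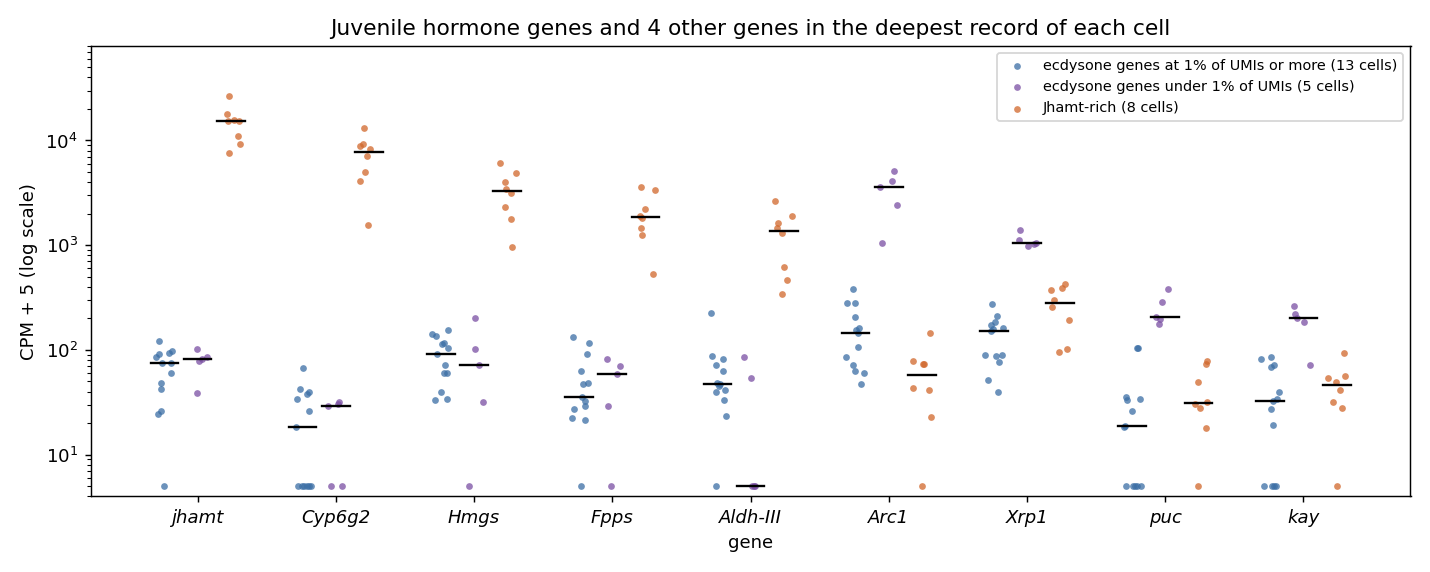
Levels of 5 juvenile hormone genes and of Arc1, Xrp1, puc and kay in single cells, as CPM with 5 added on a log axis, in 13 strong cells (blue), 5 weak cells (purple) and 8 deep Jhamt-rich cells (orange). Black lines are medians. The orange points of the 5 juvenile hormone genes lie above all others, and the purple points of Arc1 and Xrp1 lie above all others.

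Receptors that regulate the corpora allata in insects were mostly sparse in the Jhamt-rich cells. Of 10 genes, 6 were past the lower limit. Dh31-R, the receptor of the diuretic hormone DH31, was at 138 CPM (53.7 to 250) against 28.5 CPM and was found in all 8 cells. Tkv, a BMP receptor, was at 46.6 CPM against 19.5 CPM. The allatostatin receptors AstA-R1 and AstC-R2 stood at 3.21 and 14.5 CPM, each found in 2 of 8 cells, and no UMI was found for AstA-R2 or AstC-R1. Among genes of juvenile hormone reception and breakdown, the epoxide hydrolases Jheh1 and Jheh2 stood at 54.7 CPM against 6.20 and at 289 CPM against 27.2. Both were also more than 2-fold above in the strong prothoracic gland cells, at 67.0 and 134 CPM. The receptors Met and gce were at 37.0 and 38.6 CPM against 82.8 and 139 CPM.

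Leading genes outside the lists in the Jhamt-rich cells, named in the same way, were Ldsdh1, cu, CG6426 and CG8646. Ldsdh1, a short-chain dehydrogenase of lipid droplets, was at 3213 CPM (1234 to 7192) against 6.61 CPM outside both rules and 17.1 CPM in the strong cells. Heix, a prenyltransferase, was at 2115 CPM (912 to 3704) against 25.0 CPM, and Tpc1, a mitochondrial carrier of thiamine pyrophosphate, at 1664 CPM (823 to 2785) against 30.5 CPM. The lipid droplet perilipin Lsd-1 was at 315 CPM against 4.87 CPM in the strong cells. Curled (cu), a relative of vertebrate Nocturnin, was shared by both kinds, at 5628 CPM in Jhamt-rich and 2271 CPM in strong cells against 23.2 CPM, but at 56.0 CPM in the weak cells. CG6426 was shared in the same way, at 2064 and 1200 CPM against 5.58 CPM.

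Between the full sets of members the contrasts were other ones. Applied to all 458 and 331 members, the genes with the highest ratio of prothoracic gland to corpora allata members were led by the neuropeptides Eh (453 against 35.5 CPM) and AstC (357 against 44.2 CPM), and those with the lowest by Dsk (32.1 against 420 CPM), CCHa2 and Crz. In the strong cells Eh stood at 41.4 CPM and Dsk at 15.8 CPM. Applied to the rich cells instead, the rule named Faa, CG15201 and CG4408 on one side and Ldsdh1, CG42319 and heix on the other.

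Markers of neurons and hemocytes were low in the deep gland cells, with single exceptions. Of the 5 muscle markers, 3 were past the lower limit in the strong cells and none past the upper one. In the Jhamt-rich cells 3 were past the lower limit and 1 past the upper one. Summed neuron markers ranged from 269 to 555 CPM in strong, 369 to 618 CPM in weak and 152 to 4324 CPM in Jhamt-rich cells, against a median of 7921 CPM in neurons. The Jhamt-rich cell at 4324 CPM, in Starvation 1, held 52 nSyb and 80 nrv3 UMIs. Another Jhamt-rich cell of Starvation 1 held 840 UMIs of the neuropeptide gene Hug (19012 CPM) and 230 of Mlc2, where the others held at most 15 and 129. Whether these were doublets was not tested. The 5 muscle markers summed to 797 CPM in the Jhamt-rich cells (26.8 to 5274, median cell 563), 325 CPM in the weak and 144 CPM in the strong cells, against 254 CPM outside both rules. Mlc2 stood above the level of the cells outside both rules in 5 of 8 Jhamt-rich cells. The neural progenitor markers summed to 346 CPM in the Jhamt-rich cells (median cell 141), 61.6 CPM in the weak and 62.1 CPM in the strong cells, against 257 CPM. The part of other cells in these values was not tested. Of the hemocyte markers Hml, He, NimC1, Sr-CI and Pxn, 1 of 5 had a UMI in the strong and weak cells and 2 of 5 in the Jhamt-rich cells. Akh, the hormone of the corpora cardiaca, which lie in the same ring gland, stood at 18.3 CPM in strong and 38.6 CPM in Jhamt-rich cells against 37.4 CPM, and no UMI of gl was found in either. A single member in Normal 1 held Akh at over 1% of its UMIs. The 2 shallow ecdysone gene-rich barcodes of Normal 2 and Normal 3 described below held it at 2150 and 4753 CPM.

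Genes that respond to starvation were examined across conditions in the deep cells. Of these, 11 of 13 strong and 5 of 8 Jhamt-rich cells lay above the gene limit and were thus not members. Thor, the 4E-BP translation inhibitor, stood at 1256 CPM in strong and 1784 CPM in Jhamt-rich cells against 367 CPM outside both rules, and ranged from 35.9 to 3374 CPM over the strong cells. Of the 16 starvation, insulin and TORC1 genes, 2 were past the upper and 7 past the lower limit in the strong cells, with a median log2 ratio of -0.68. Of the strong cells 1 came from a fed library, and it too lay above the gene limit. In that Normal 4 cell 3 Thor UMIs gave 35.9 CPM (exact Poisson interval 7.41 to 105 CPM), where the 12 starved cells ranged from 106 to 3374 CPM. The lowest starved cell rested on 5 Thor UMIs, and its interval of 34.5 to 248 CPM overlapped that of the Normal 4 cell. Atg8a, an autophagy gene, was at 228 CPM (137 to 355) in it against 661 to 1616 CPM, and REPTOR-BP, a partner in the response to low TORC1 activity, at 71.9 CPM (26.4 to 156) against 194 to 623 CPM. Sirup, an assembly factor of succinate dehydrogenase, was at 47.9 CPM (13.1 to 123) against 1372 to 8089 CPM. Of the whole list of 16 genes, 3 lay below the range of the 12 starved cells in that cell, 12 within it and 1 above it. The heat shock genes went the other way, with 9 of 10 above that range. The share of all genes outside that range is not given here, so these counts from 1 cell do not mark out the lists. Hsp26 was at 2132 CPM (1830 to 2470) in the Normal 4 cell against 0 to 200 CPM, and Hsp23 at 1054 CPM (845 to 1299) against 0 to 82.5 CPM.

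Among the ecdysone genes of that cell, sad was at 5402 CPM (4915 to 5925) against 1056 to 3852 CPM in the 12 starved cells, and Start1 at 5498 CPM (5007 to 6025) against 250 to 3594 CPM. Torso (tor) was at 23.96 CPM (2.90 to 86.5) against 83.3 to 431 CPM, while spok, phm, nvd, dib and sro lay within the range of the starved cells. The intervals cover counting error only. The other cells of Normal 4 also differed from those of Starvation 1 and 2, with Hsp26 at 587 CPM against 80.5 and 94.6 CPM, and Thor at 91.9 CPM against 392 and 422 CPM. In the other fed libraries Thor stood at 271 CPM (Normal 1), 484 CPM (Normal 2) and 454 CPM (Normal 3) in the other cells.

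The fed libraries gave 2 further ecdysone gene-rich barcodes, both shallow and each present in 1 library. Of the 31 such kept records in normal libraries, 29 were marked, at 1747 to 3579 UMIs. The 2 unmarked ones were of similar depth, and whether they came from fed larvae was not tested. The one in Normal 2 had 2326 UMIs, of which 3 were of Thor (1290 CPM, 266 to 3769) and 9 of Sirup (3869 CPM, 1769 to 7345). It also held 4 Jhamt UMIs and 5 Akh UMIs (2150 CPM, 698 to 5016). The one in Normal 3 had 1683 UMIs, of which 13 were of Thor (7724 CPM, 4113 to 13209) and 4 of Sirup (2377 CPM, 648 to 6085). A further 8 of its UMIs were of Akh (4753 CPM, 2052 to 9366). For Thor and Sirup both thus lay above the Normal 4 cell, whose intervals did not reach theirs. No Hsp26 or Hsp23 UMI was found in either, which at this depth leaves up to 1586 and 2192 CPM within the exact Poisson intervals. With 1 deep and 2 shallow cells of fed libraries no test was made, and the library of each cannot be told apart from its condition.

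For the Jhamt-rich cells the only barcode whose deepest record lay in a normal library, in Normal 2, had 10017 UMIs. It held Jhamt at 17670 CPM (15163 to 20474), within the 7602 to 28971 CPM of the 10 starved cells, Hmgs at 8086 CPM (6422 to 10051) against 953 to 6111 CPM, and Thor at 3694 CPM (2601 to 5091) within 823 to 6972 CPM. Vvl was at 200 CPM (24.2 to 721) against 197 to 3187 CPM.

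The share of members among kept cells was compared between conditions over the 7 libraries. The rule gave prothoracic gland shares of 2.43%, 1.501%, 1.37% and 1.49% in Normal 1 to 4, and 5.41%, 16.7% and 0.338% in Starvation 1 to 3. Starvation 1 and 2 were above all normal libraries and Starvation 3 below them. The means were 1.70% ± 0.492 (SD, n = 4) and 7.49% ± 8.39 (SD, n = 3), which did not pass an exact two-sided permutation test (p = 0.286, adjusted p = 0.286 over 2 shares). The smallest p that 4 against 3 libraries allow is 0.0571. Corpora allata shares were 0.972%, 0.750%, 0.805% and 0.373% against 6.10%, 10.9% and 0.676%. Their means were 0.725% ± 0.253 (SD, n = 4) and 5.88% ± 5.09 (SD, n = 3), with p = 0.229 in the exact permutation test and an adjusted p of 0.286.

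Trace cells made up most of these shares. Counted as rich cells only, the direction turned, to 0.674% ± 0.779 in normal and 0.308% ± 0.271 in starvation libraries (exact permutation p = 0.571) for ecdysone genes and to 0.349% ± 0.405 and 0.153% ± 0.174 (p = 0.571, exact permutation) for Jhamt, and most rich cells of the normal libraries were marked. Without the marked cells, an alternative chosen after the data had been seen, the rich shares were 0.0678% ± 0.0783 in normal and 0.188% ± 0.189 in starvation libraries for ecdysone genes (exact permutation p = 0.343). For Jhamt they were 0.0348% ± 0.0696 and 0.104% ± 0.129 (exact permutation p = 0.514). The turn of direction thus rested on marked records. When each cell was thinned to 1000 UMIs, which left out no kept cell, the rule took 58 prothoracic gland cells in place of 458, and 44 of these were ecdysone gene-rich. It took 33 corpora allata cells in place of 331, and 24 of these were Jhamt-rich. The labels do not say which libraries share an experiment. Normal 2 with Normal 3 and Starvation 1 with Starvation 2 were linked by their numbers of cells, an inference that was not tested. With the libraries merged in this way, the difference of normal minus starvation was -3.88 percentage points (exact permutation p = 0.80) for prothoracic gland members. For corpora allata members it was -3.85 (exact permutation p = 0.60). Without Starvation 2 the mean prothoracic gland share of the starvation libraries was 2.88%. Since most members were trace cells, these shares need not count gland cells. Gland cells present, gland cells recovered at dissection and the level of the trace in each library cannot be told apart here.

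Gene expression was compared between conditions on UMIs summed per library over the unmarked prothoracic gland members, for the libraries with at least 5 of them. These were Normal 1 and Normal 4 against Starvation 1 and Starvation 2. The quasi-likelihood test of edgeR called none of 6308 genes at an adjusted p under 0.05 (0% called), while 829 had an unadjusted p under 0.05. DESeq2 called 92 of 4718 genes (550 at an unadjusted p under 0.05). Without Starvation 1 edgeR called 62 genes, and without Starvation 2 it called 91. On counts simulated for this comparison, no change of 2-fold was recovered (0 of 67), 34 of 67 changes of 4-fold and 53 of 66 of 8-fold. These counts were drawn with a dispersion (spread between libraries) of 0.0834. Whether the real sums spread alike was not tested. In the real sums lncRNA:CR40469 (edgeR log2 difference 5.37, adjusted p = 0.0841) and CG31337 (edgeR log2 difference 4.55, adjusted p = 0.146) were not called. Most of the cells behind the gene test were trace cells. The lowest p was that of Hsp26, at 453 and 356 CPM in Normal 1 and Normal 4 and 34.0 and 39.7 CPM in Starvation 1 and 2 (edgeR log2 difference -3.34, adjusted p = 0.0841). The groups did not overlap for Hsp26, which had been picked by its p from the 6308 genes. The share of all genes without overlap is not given here, so this is no support for a difference. Thor stood at 287 and 91.4 CPM against 522 and 550 CPM (edgeR log2 difference 1.68, adjusted p = 0.251). None of the genes in the 20 lists was called.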

How the data were processed

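Per the labels and the methods, the authors prepared droplet libraries with a Chromium 3' kit, counted UMIs with Cell Ranger (version 2.2.0 in the methods) against FlyBase annotation r6.22, and deposited raw UMI counts for 17493 genes and 9353 called cells. The authors' aggregated count matrices of each condition equalled the single libraries at every entry. Library totals ran from 5359444 to 25232852 UMIs. The labels name kit version 2 and the methods version 3.

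Here cells with 201 to 4499 genes and under 20% of UMIs from 37 mitochondrial genes were kept. Members were found by the rule of the report. Members and gene lists were chosen with earlier results of these data known. Levels are CPM of summed UMIs, and log2 ratios used 5 CPM as pseudocount. Named genes were the list genes, the 15 genes of each kind outside the lists with the highest ratio, found in at least 25% of members and above the other cells in every library with at least 5 members, and the 10 highest and lowest between the kinds. Shares were compared by exact permutation. Summed counts were tested with edgeR 4.0.16 in R 4.3.3 (filterByExpr, TMM, Benjamini-Hochberg), with DESeq2 1.42.0 as the alternative. The edgeR fit was tested on simulated data. Intervals of single cells are exact Poisson at 95%. Python 3.11.15 with numpy 2.4.6 and scipy 1.17.1 was used. Leave-one-out runs, a stricter rule, other pseudocounts, no gene limit and merged experiments were tried. The link of libraries to experiments was inferred from numbers of cells and is not given by the labels. Positions were matched by gene ID for 17366 of 17493 genes. Authors' clusters were not used here. A gene of one list is not reported here.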

Additional observations from a re-analysis of the deposited data

Results flagged for a closer look

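Normal 1 stood apart from the other normal libraries in its share of prothoracic gland members, 2.43% against 1.37% to 1.501%, with a gap to the nearest library of 0.874 of the whole range. By chance about 1 in 20 such groups would stand out in this way. None of its 30 members was ecdysone gene-rich, its median depth was the lowest of all libraries at 2370 UMIs, and the 5 genes stood at 57.7 CPM in its cells. The part of these values in its share was not tested.

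Cells that the rule does not use held the deepest gland signal. Above the upper limit of 4499 genes lay 11 ecdysone gene-rich records, of which 4 were in Starvation 1, 6 in Starvation 2 and 1 in Normal 4. A further 5 Jhamt-rich records lay there, of which 2 were in Starvation 1, 2 in Starvation 2 and 1 in Starvation 3. Among the 329 cells above the limit, 149 came from Normal 4 alone.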

How the results depend on the processing

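The share of prothoracic gland cells, -5.795 percentage points for normal minus starvation, reversed for gland-rich cells (0.37) and after thinning (0.27), alternatives chosen after the data had been seen. The corpora allata share, -5.15, reversed under the stricter rule (0.18), for gland-rich cells (0.20) and after thinning (0.10). Gland-rich cells that were not marked kept the direction, at -0.12 and -0.07. Other settings kept it too, and none passed the threshold. With the replicate number as a block the differences were -5.73 and -5.03, with p = 0.50 in an exact sign-flip test, of which the smallest p is 0.25. The numbers did not pair the libraries, since deviations of same-numbered libraries across 5434 genes correlated at 0.17, 0.21 and -0.12. No paired analysis was possible for the gene test because its libraries share a single number. Leaving out 1 library at a time moved the prothoracic gland difference between -9.37 and -1.18 and the corpora allata difference between -7.75 and -2.66. With libraries merged by the inferred link to experiments they were -3.88 and -3.85.

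The gene test called 0 genes with marked cells included and without gland-rich cells, 407 without the count filter, 92 with DESeq2, 64 with merged experiments (1 starvation sample, assumed to vary like the others), and 0 to 91 with a library left out, where the lone sample is likewise assumed to vary like the others. It called 62 without Starvation 1 and 91 without Starvation 2. The cause was not tested.

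The median log2 ratio of the 4 other ecdysone genes over all members was 0.55 and moved to 2.35 in gland-rich cells. That of the juvenile hormone genes was 1.16 and moved to 4.33 under the stricter rule and 5.15 in gland-rich cells. In gland-rich cells 7 of 19 list medians changed sign for prothoracic gland and 6 of 19 for corpora allata members, among them muscle markers (1.32 to -0.79 and 1.03 to -1.59), glia markers (0.41 to -1.56 and 0.51 to -1.76) and the starvation list (0.25 to -0.33 and 0.23 to -0.16). Depth limits all of this: most trace members rest on 2 or 3 UMIs of the rule genes, and the deep cells on 13, 5 and 8 barcodes.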
